A study of Schizosaccharomyces pombe with 31 samples.

Results

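The small (40S) subunit of the cytosolic ribosome carries a single RNA and a set of proteins, and in fission yeast many of these proteins are coded by a pair of gene copies. The genes described here are 48 genes of the small subunit, taken by their identifiers from the 7001 genes of each expression table. They make 17 pairs of copies and 14 genes whose other copy, if any, is outside the list. Another 8 genes whose symbols begin with rps were outside the identifier list and are given at the end of the comparisons only.

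RNAseq was made from Schizosaccharomyces pombe cells of the strain h- 972 and derivatives of it, to follow the Greatwall-Endosulfine switch in nitrogen starvation. In the starvation experiment, 3 strains were grown in minimal medium (MM), washed, and kept in MM without nitrogen (MM-N) at 25 ºC. The strains were *igo1*∆ (h- igo1::kanMX6, without Endosulfine), *ppk18*∆ *cek1*∆ (h- ppk18::KanMX6 cek1::natMX6, without the Greatwall kinases Ppk18 and Cek1) and the wild type, each sampled as 3 cultures in MM, 3 after 1 h without nitrogen and 3 after 4 h (27 libraries). In the overexpression experiment, GFP-tagged *ppk18*+ was expressed from the *nmt1*+ promoter (h- P3-nmt1-GFP-ppk18) in MM without thiamine for 20 h, and 2 cultures of that strain were set beside 2 wild type cultures in the same medium. The time label of these 4 samples is 0 h, and 20 h comes from their protocol. The labels call the deletions knockdowns. They name replicates as biological and do not say that cultures of one strain came from separate clones, so p-values cover the spread between these cultures only. RNA extraction and ribosomal RNA depletion also differed between the 2 experiments, which are not compared with each other.

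The values are normalized counts, which are reads per gene divided by a size factor for each library. Reads on genes numbered 14921656 to 22464897 per starvation library and 14612909 to 18846318 per overexpression library. The targeted genes were looked at first. The mean normalized count of *ppk18* was 198 in *ppk18*∆ *cek1*∆ and 4215 in the wild type in MM, and that of *cek1* was 74.7 and 2978. The mean of *ppk18* was 359073 in the overexpression strain and 4968 in the wild type grown beside it. The row of *igo1* was not lost in *igo1*∆, with means of 2061 in *igo1*∆ and 3175 in the wild type in MM, 2272 and 3072 at 1 h, and 1529 and 2711 at 4 h. Its coding sequence is 420 of 1181 exon bases in the RefSeq annotation, and the labels do not say which bases the marker replaced, so this row checks the label of *igo1*∆ only in part.

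Ribosomal protein genes are among the most strongly transcribed genes of growing yeast, and their transcription is known to depend on TOR complex 1, which is active when nitrogen is at hand. Greatwall kinases act below that complex, and they phosphorylate Endosulfine, which then inhibits the phosphatase PP2A/B55. In fission yeast, many ribosomal protein promoters hold a short element called HomolD, which takes the place of a TATA box, and some hold a second element called HomolE.

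The bases before the annotated transcript starts were read to see which elements the 48 genes share. Windows of *rps1601*, *rps3001*, *rps27*, *rps1202* and *rps2601*, each at an extreme of a comparison that follows, are not shown. Those below come from some of the other genes with large, small or unequal changes in these comparisons, and from their copies. Each is the last 100 bases before the start, 5′ to 3′ on the strand of the gene, in RefSeq assembly ASM294v3. Capitals mark exact matches to HomolD (CAGTCACA, or TGTGACTG on the other strand) and to HomolE (ACCCTACCC, or GGGTAGGGT on the other strand). No HomolD match shared a base with a HomolE match in the windows shown. The files use assembly ASM294v2, so that genes were matched by locus tag and not by position.
rps1402 (II:1792263-1792362, plus strand): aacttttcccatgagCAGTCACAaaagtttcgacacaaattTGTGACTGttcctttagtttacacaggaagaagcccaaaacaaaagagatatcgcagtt
rps1401 (I:3436144-3436243, plus strand): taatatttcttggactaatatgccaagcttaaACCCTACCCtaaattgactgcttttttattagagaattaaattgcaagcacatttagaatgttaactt
rps1502 (I:3868979-3869078, minus strand): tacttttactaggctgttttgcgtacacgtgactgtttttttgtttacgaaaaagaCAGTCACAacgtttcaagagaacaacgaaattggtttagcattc
rps1501 (III:798144-798243, plus strand): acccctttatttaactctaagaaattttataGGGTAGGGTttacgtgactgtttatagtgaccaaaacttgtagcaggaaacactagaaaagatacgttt
rps2201 (I:1162659-1162758, minus strand): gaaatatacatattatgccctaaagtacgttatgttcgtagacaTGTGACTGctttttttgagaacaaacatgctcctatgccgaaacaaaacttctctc
rps2202 (I:1512391-1512490, minus strand): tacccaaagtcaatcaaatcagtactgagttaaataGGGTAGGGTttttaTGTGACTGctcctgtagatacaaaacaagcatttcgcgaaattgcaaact
rps23 (I:2135811-2135910, minus strand): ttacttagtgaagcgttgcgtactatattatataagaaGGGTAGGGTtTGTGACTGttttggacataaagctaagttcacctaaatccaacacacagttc
rps2302 (II:2896987-2897086, plus strand): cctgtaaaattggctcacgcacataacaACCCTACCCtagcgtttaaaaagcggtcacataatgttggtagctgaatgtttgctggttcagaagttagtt
rps1902 (II:535242-535341, plus strand): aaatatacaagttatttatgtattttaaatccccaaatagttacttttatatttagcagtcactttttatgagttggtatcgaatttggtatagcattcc
ubi3 (I:3238395-3238494, minus strand): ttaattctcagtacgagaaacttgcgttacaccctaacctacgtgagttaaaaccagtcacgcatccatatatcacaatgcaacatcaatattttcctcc
In these windows *rps1402* holds HomolD on both strands, *rps2202* and *rps23* hold both elements side by side, *rps1401*, *rps1501* and *rps2302* hold HomolE alone, and *rps1902* and *ubi3* hold neither in exact form. A missing match says only that these letters are not in the window, and that of *rps2302* holds CGGTCACA, with G for the first A of HomolD.

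Over the 250 bases before the start, an exact HomolD was found in 31 of the 48 genes (64.6%), against 134 of all 5110 protein coding genes of the tables (2.62%). Its nearest base lay 35 to 67 bases before the start, with a median of 43. HomolE was found in 18 of the 48 genes (37.5%), against 65 of the 5110 (1.27%), at 50 to 74 bases before the start. Of the 48, 10 held both, 21 held HomolD alone, 8 held HomolE alone, and 9 held neither (*rps002*, *rps101*, *rps902*, *rps1602*, *rps1801*, *rps1902*, *rps2601*, *rps29* and *ubi3*). These classes rest on exact matches only. Upstream of *rps002*, *rps101*, *rps1902* and *ubi3*, CAGTCAC was followed by a base other than A, and these genes were counted as lacking HomolD. Among 86 genes with symbols of the large subunit, 54 (62.8%) held HomolD and 20 held HomolE. In the wild type after 4 h in MM-N, the median log2 fold change against MM was -3.30 in the genes with both motifs, -3.45 with HomolD alone, -3.23 with HomolE alone and -3.27 with neither. After *ppk18*+ overexpression, these medians were -0.51, -0.54, -0.37 and -0.48. These classes were not tested against each other.

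In nitrogen-rich medium the 48 genes lay near the top of the expressed genes in each strain. Per kilobase of exon, the median of the 48 in wild type cells in MM was 34727 normalized counts, against 415 for the 6852 genes with a length, and 46 of the 48 were among the 200 highest genes. The lowest was *rps3001*, which codes for Rps30, with 8998 per kilobase, and the highest was *rps21*, which codes for Rps21, with 86234. The spread of the levels was 0.66 (SD of log2 per kilobase) in MM, 0.88 at 1 h and 0.72 at 4 h. In wild type cells, 14 of the 48 were still among the 200 highest genes at 1 h and 6 at 4 h, and the median per kilobase was 2836 at 4 h. In *igo1*∆ and *ppk18*∆ *cek1*∆ at 4 h, the medians were 4620 and 4657 per kilobase, with 9 and 10 genes among the 200 highest. The order of the genes was kept only in part, since the lowest gene per kilobase was *rps3001* in MM and *rps2202* at 1 h and 4 h in each of the strains.

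**Figure D1:**
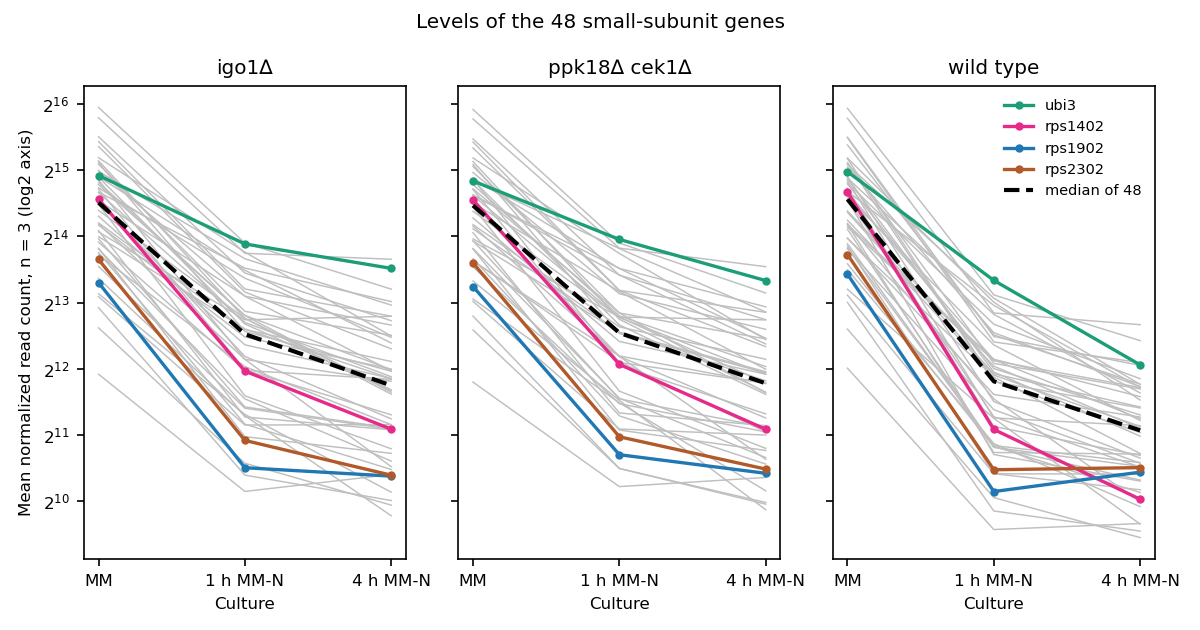
Mean normalized read count (log2 axis, n = 3) of each of the 48 genes (grey lines) against culture (MM, 1 h and 4 h in MM-N), with a panel each for *igo1*∆, *ppk18*∆ *cek1*∆ and the wild type, 4 named genes in colour and the median of the 48 dashed. All 48 lines go down from MM to 1 h in each strain, and in the wild type *rps1902* is higher at 4 h than at 1 h.

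Nitrogen starvation of the wild type asks how far the mRNA for the small subunit falls when cells stop growing. All 48 genes were lower after 1 h in MM-N than in MM, and all 48 were lower after 4 h. The median log2 fold change was -2.79 at 1 h (from -3.87 to -1.65), a 6.90-fold fall, and -3.41 at 4 h (from -4.64 to -2.35), a 10.6-fold fall. Of the 6036 genes tested, 37.5% were called lower at 1 h and 39.4% at 4 h, and their median changes were 0.04 and 0.01. Fold changes were computed on log2(normalized count + 1) with limma, and a gene was called at an adjusted p below 0.05. In bulk RNA, a loss of mRNA from every cell and a loss from some of the cells cannot be told apart. The falls are relative to the other genes of a library, and amounts of mRNA per cell were not measured.

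The deepest fall at 1 h was that of *rps1601* (SPBC18H10.14), which codes for Rps16, a head protein whose tail reaches the P site. Its normalized counts in the 3 wild type cultures were 21902, 24191 and 26263 in MM, 1274, 1901 and 1829 at 1 h, and 1302, 1331 and 1155 at 4 h. The log2 fold change was -3.87 ± 0.12 (standard error) at 1 h with an adjusted p of 1.86e-18 (limma, Benjamini-Hochberg). No starved culture came near the MM cultures, and the 1 h and 4 h cultures lay close together. For *rps1402* (SPBC18H10.13), a copy for Rps14 on the platform, counts were 23051, 26180 and 29126 in MM, 1679, 2405 and 2425 at 1 h, and 1005, 1059 and 1068 at 4 h. That gene had the deepest fall at 4 h, with a log2 fold change of -4.64 ± 0.12 (adjusted p = 1.45e-20, limma), and 4.00% of its MM level was left.

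At the other end were *ubi3*, *rps13* and *rps1401*. The gene *ubi3* codes for ubiquitin fused to the small subunit protein S31, so its mRNA also supplies ubiquitin. Its counts were 29230, 31705 and 35915 in MM, 8324, 11398 and 11311 at 1 h, and 4152, 4513 and 4135 at 4 h, and 32.0% of the MM level was left at 1 h (log2 fold change of -1.65 ± 0.09). Counts of *rps13*, the gene for the body protein Rps13, were 25195, 26103 and 27678 in MM, 6800, 8150 and 8930 at 1 h, and 3352, 3521 and 3238 at 4 h (-1.73 ± 0.08 at 1 h). Those of *rps1401* (SPAC3H5.05c), the other copy for Rps14, were 8727, 9377 and 10164 in MM, 2105, 2664 and 2544 at 1 h, and 861, 781 and 772 at 4 h (-1.95 ± 0.10 at 1 h). These 3 genes were the ones that had not reached a 4-fold fall at 1 h, and all 48 had reached it at 4 h. An 8-fold fall was reached by 18 genes at 1 h and by 38 at 4 h.

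**Figure D2:**
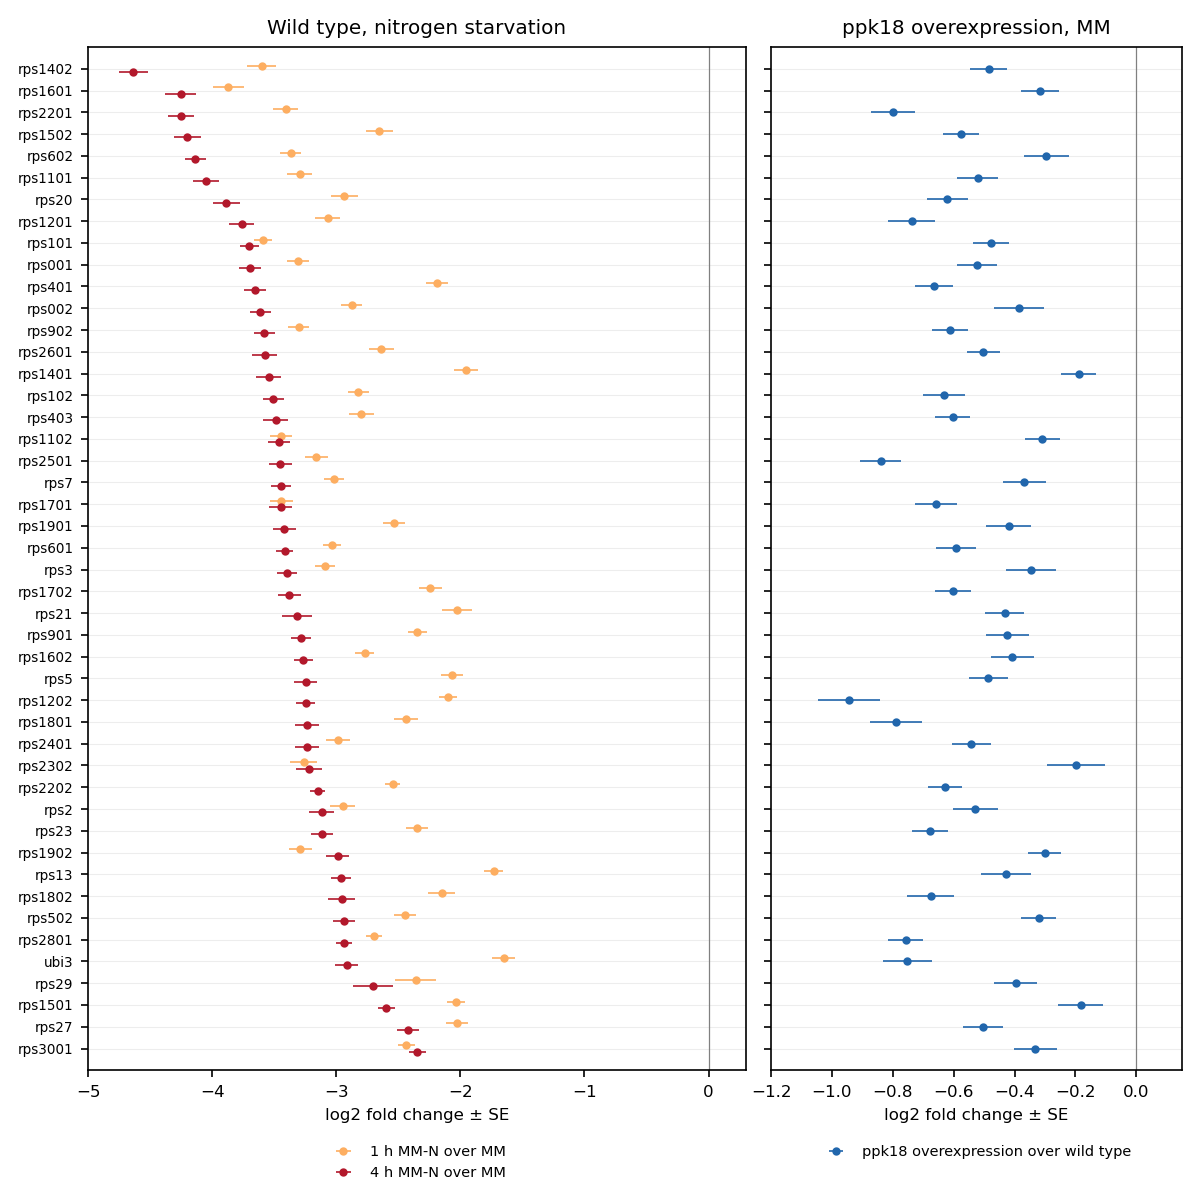
Log2 fold change (x axis, points, with bars of 1 standard error) of 46 of the 48 genes (rows, ordered by the change at 4 h). The left panel shows wild type cells at 1 h (orange) and 4 h (red) in MM-N over MM, with 4 h values from -4.64 to -2.35, and the right panel shows the *ppk18*+ overexpression strain over the wild type, from -0.94 to -0.18.

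The smallest falls at 4 h belonged to *rps3001*, *rps27* and *rps1501*. Counts of *rps3001* were 3988, 4200 and 4175 in MM, 718, 797 and 765 at 1 h, and 754, 886 and 789 at 4 h (log2 fold change of -2.35 ± 0.07 at 4 h). Those of *rps27*, which codes for the zinc-binding protein Rps27, were 16674, 17844 and 19772 in MM, 3683, 4837 and 4856 at 1 h, and 3190, 3586 and 3321 at 4 h (-2.42 ± 0.09). For *rps1501* (SPCC1393.03), a copy for the head protein Rps15, they were 17015, 18429 and 20230 in MM, 4134, 4608 and 4842 at 1 h, and 3036, 3127 and 3017 at 4 h (-2.60 ± 0.07). The largest falls at 4 h, besides those of *rps1402* and *rps1601*, included that of *rps2201* (SPAC22A12.04c), a copy for Rps22, with 28646, 29362 and 34026 in MM, 2395, 3097 and 3217 at 1 h, and 1552, 1679 and 1588 at 4 h (-4.25 ± 0.10). A 16-fold fall at 4 h was reached by 7 genes (among them *rps602*, *rps1101*, *rps1402*, *rps1502*, *rps1601* and *rps2201*).

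Most of the genes went on falling between 1 h and 4 h. In the wild type, 40 of the 48 were lower at 4 h than at 1 h and 1 was higher, where 30.7% of all genes tested were called lower and 27.1% higher, and the median of the 48 was -0.69. The genes with no call were *rps2*, *rps101*, *rps1102*, *rps1701*, *rps2302*, *rps29* and *rps3001*. The gene that was higher at 4 h was *rps1902* (SPBC649.02), a copy for the head protein Rps19 (in humans, a protein mutated in Diamond-Blackfan anaemia). Its counts were 10576, 10572 and 11963 in MM, 944, 1225 and 1227 at 1 h, and 1404, 1432 and 1323 at 4 h, and its log2 fold change from 1 h to 4 h was 0.30 ± 0.09 (adjusted p = 0.00781, limma). Without wild type replicate 1 of 1 h, no gene of the 48 was higher at 4 h. In that culture the 48 genes took 0.985% of all reads on genes, below the 1.22% and 1.26% of the other cultures of the group.

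The same falls were measured in the deletion strains, each against its own cells in MM. In *igo1*∆, 48 of 48 genes were lower at 1 h, with a median log2 fold change of -2.05 and a background of 38.1% of genes called lower. At 4 h in *igo1*∆, 48 were lower, with a median of -2.76 and a background of 41.2%. In *ppk18*∆ *cek1*∆, 48 were lower at 1 h (median of -1.97, background of 38.2%) and 48 at 4 h (median of -2.74, background of 40.9%). The median gene kept 24.2% of its MM level at 1 h and 14.7% at 4 h in *igo1*∆, 25.4% and 14.99% in *ppk18*∆ *cek1*∆, and 14.6% and 9.42% in the wild type. From 1 h to 4 h, 41 genes fell further in *igo1*∆ (36.3% of all genes were called lower) and *rps3001* rose by 0.26 (33.8% were called higher), with no call for *rps2*, *rps1102*, *rps1902*, *rps27*, *rps2801* and *rps29*. In *ppk18*∆ *cek1*∆, 44 fell further (35.9% of all genes were called lower), with no call for *rps1102*, *rps27*, *rps2801* and *rps3001*. Without *ppk18*∆ *cek1*∆ replicate 3 of 1 h, 1 gene was called higher in that strain at 4 h.

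In MM, where the strains differ in genotype only, no difference was called. Between *igo1*∆ and the wild type, 0 of 48 genes were called by limma in MM, none of them at an unadjusted p under 0.05 (0 genes), with log2 differences between -0.14 and 0.03. Of all genes tested, 2.15% were called in either direction. Between *ppk18*∆ *cek1*∆ and the wild type, 0 of 48 were called by limma in MM, with differences between -0.35 and 0.02. Here 1.67% of all genes were called in either direction. The 4 genes at an unadjusted p below 0.05 (*rps21*, *rps2501*, *rps29* and *rps3001*) were lower in *ppk18*∆ *cek1*∆. With 1 library left out, the median of the 48 lay between -0.13 and -0.01 in *ppk18*∆ *cek1*∆ and between -0.10 and 0.02 in *igo1*∆. With edgeR and with DESeq2 on the recovered reads, 0 of 48 were called in each of these comparisons.

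After nitrogen was removed, most of the 48 genes were higher in the deletion strains than in the wild type. At 1 h, 46 of 48 were higher in *igo1*∆ and 0 were lower, with a median log2 fold change of 0.65 (1.57-fold), where 32.6% of all genes tested were called higher. The genes with no call were *rps1401* and *rps29*. In *ppk18*∆ *cek1*∆ at 1 h, 48 of 48 were higher, with a median of 0.69 (1.61-fold) and 30.5% of all genes called higher, although *rps1401* lost its call with equal library totals. At 4 h, 44 were higher in *igo1*∆ and none was lower, with a median of 0.63 (1.55-fold, from -0.14 to 1.46) and 38.8% of all genes called higher. With equal totals 42 were higher and 4 were lower, where 1714 of the 6036 genes tested were called higher and 2814 lower. In *ppk18*∆ *cek1*∆ at 4 h, 44 were higher and none was lower, with a median of 0.66 (1.58-fold, from -0.04 to 1.27) and 37.6% of all genes called higher. With equal totals 41 were higher and 4 were lower, where 1558 of all genes tested were called higher and 2846 lower. The wild type libraries are shared by these comparisons, so the likeness of the strains is given by their own difference. At 4 h, 0 of 48 genes were called by limma, edgeR or DESeq2 between *igo1*∆ and *ppk18*∆ *cek1*∆, with 1 at an unadjusted p below 0.05, log2 differences between -0.10 and 0.19, and 6.0% of all genes called in either direction.

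**Figure D3:**
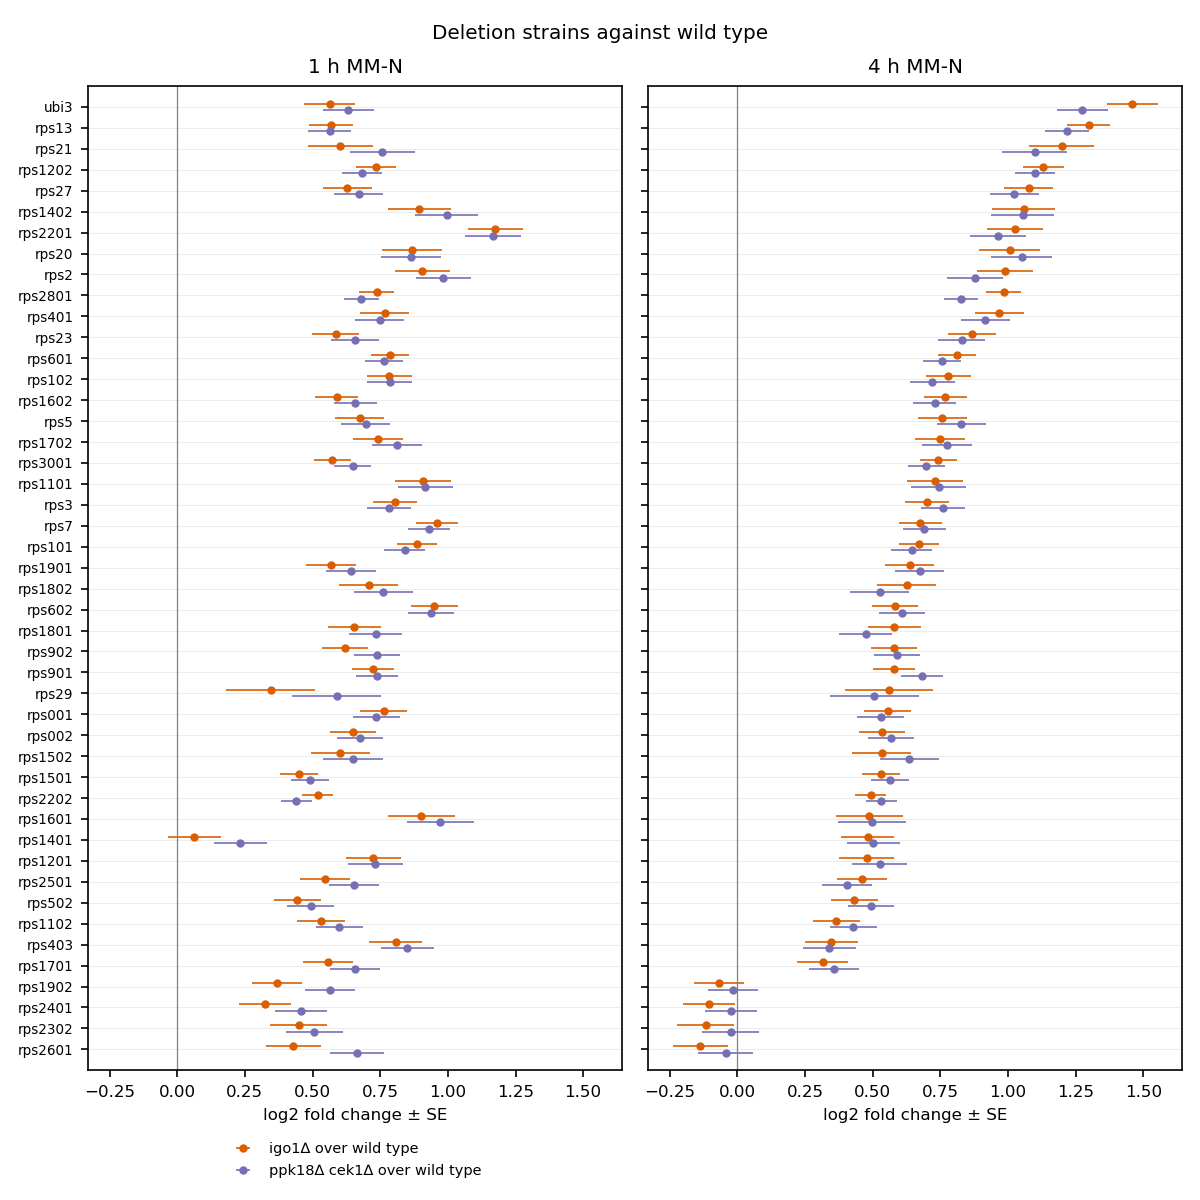
Log2 fold change over the wild type (x axis, points, with bars of 1 standard error) of 46 of the 48 genes (rows, ordered by *igo1*∆ at 4 h) in *igo1*∆ (orange) and *ppk18*∆ *cek1*∆ (purple), at 1 h in MM-N (left) and 4 h (right). At 4 h *ubi3* is highest at 1.46 and 1.27, and *rps1902*, *rps2401*, *rps2302* and *rps2601* lie next to 0.

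The gene that stood highest over the wild type at 4 h was *ubi3*. Its counts were 11893, 11603 and 11695 in *igo1*∆, 10736, 10411 and 9819 in *ppk18*∆ *cek1*∆, and 4152, 4513 and 4135 in the wild type. The log2 fold change was 1.46 ± 0.09 in *igo1*∆ (adjusted p = 1.81e-12, limma) and 1.27 ± 0.09 in *ppk18*∆ *cek1*∆ (adjusted p = 2.70e-11, limma). The gene with the second largest difference was *rps13*, with 8476, 8107 and 8277 in *igo1*∆, 7690, 7652 and 8176 in *ppk18*∆ *cek1*∆, and 3352, 3521 and 3238 in the wild type (1.30 and 1.22, each ± 0.08). The levels of both genes in the deletion strains were more than 2-fold those of the wild type in every culture. For *rps21*, the counts were 8781, 7272 and 7898 in *igo1*∆, 7649, 7534 and 7114 in *ppk18*∆ *cek1*∆, and 3124, 3831 and 3483 in the wild type (1.20 and 1.10, each ± 0.12). At 1 h the largest difference was in *rps2201*, with 5465, 6980 and 7220 in *igo1*∆, 5722, 6927 and 6807 in *ppk18*∆ *cek1*∆, and 2395, 3097 and 3217 in the wild type (1.18 and 1.17, each ± 0.10).

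Genes with no call at 4 h in *igo1*∆ were *rps1902*, *rps2302*, *rps2401* and *rps2601*. In *ppk18*∆ *cek1*∆ against the same wild type libraries, genes with no call were *rps1902*, *rps2302*, *rps2401* and *rps2601*. Counts of *rps2601*, for Rps26 near the exit of the mRNA channel, were 937, 809 and 888 in *igo1*∆, 896, 943 and 969 in *ppk18*∆ *cek1*∆, and 886, 1016 and 996 in the wild type (-0.14 and -0.04, each ± 0.10). Those of *rps2302* (SPBP4H10.13), a copy for the decoding centre protein Rps23, were 1499, 1265 and 1266 in *igo1*∆, 1311, 1402 and 1583 in *ppk18*∆ *cek1*∆, and 1394, 1530 and 1438 in the wild type (-0.12 and -0.03, each ± 0.11). Those of *rps2401*, for Rps24, were 1529, 1400 and 1347 in *igo1*∆, 1529, 1524 and 1475 in *ppk18*∆ *cek1*∆, and 1517, 1565 and 1517 in the wild type (-0.11 and -0.02, each ± 0.10). The cultures of the 3 strains overlap for each of these genes. For *rps1902*, the counts were 1547, 1237 and 1208 in *igo1*∆, 1337, 1385 and 1389 in *ppk18*∆ *cek1*∆, and 1404, 1432 and 1323 in the wild type (-0.07 and -0.02, each ± 0.09). At 1 h, in contrast, *rps2601* had 2183, 2622 and 2710 in *igo1*∆, 2731, 3097 and 2992 in *ppk18*∆ *cek1*∆, and 1521, 2012 and 2078 in the wild type, and was called higher in each deletion strain. With equal library totals, these 4 genes were called lower at 4 h, by -0.32 to -0.25 in *igo1*∆ and by -0.23 to -0.20 in *ppk18*∆ *cek1*∆. With that scaling, 2814 of the 6036 genes tested were called lower in *igo1*∆ and 2846 in *ppk18*∆ *cek1*∆. The medians of all genes tested were -0.15 and -0.16.

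The response to starvation itself was compared between strains as the change from MM in a deletion strain minus that in the wild type. It was positive and called in 46 genes for *igo1*∆ at 1 h (median of 0.70), where 25.1% of all genes tested had a positive difference that was called. For *igo1*∆ at 4 h, it was called in 44 (median of 0.67, background of 34.2%). For *ppk18*∆ *cek1*∆, it was called in 48 at 1 h (median of 0.80, background of 23.7%) and in 44 at 4 h (median of 0.72, background of 32.9%). No gene of the 48 had a negative difference that was called. The difference at 4 h was largest in *ubi3*, with 1.51 ± 0.13 for *igo1*∆ and 1.41 ± 0.13 for *ppk18*∆ *cek1*∆. At 1 h it was largest in *rps2201*, with 1.18 ± 0.14 and 1.22 ± 0.14.

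The gene copies for Rps6, the protein phosphorylated by S6 kinases, gave a closer view of the 3 strains. Counts of *rps601* at 4 h were 5819, 5729 and 5910 in *igo1*∆, 5582, 5508 and 5716 in *ppk18*∆ *cek1*∆, and 3273, 3332 and 3341 in the wild type. Counts of *rps602* at 4 h were 3166, 3121 and 3137 in *igo1*∆, 3166, 3022 and 3424 in *ppk18*∆ *cek1*∆, and 2077, 2121 and 2101 in the wild type. In MM, *rps601* had 34712, 36018 and 34041 in *igo1*∆, 34354, 35724 and 32356 in *ppk18*∆ *cek1*∆, and 33567, 34546 and 38275 in the wild type. For each copy, the deletion cultures lay above every wild type culture at 4 h, while those in MM overlapped. In MM *rps602* had 36569, 37031 and 35009 in *igo1*∆, 36702, 37874 and 33218 in *ppk18*∆ *cek1*∆, and 34858, 36565 and 39691 in the wild type. At 1 h, *rps601* had 6676, 7894 and 7858 in *igo1*∆, 6795, 7719 and 7526 in *ppk18*∆ *cek1*∆, and 3806, 4506 and 4690 in the wild type. These are levels of mRNA and say nothing of the phosphorylation of the protein.

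The overexpression experiment compares these genes between cells with raised *ppk18*+ and the wild type, both in nitrogen-rich medium. The strains also differed in other transcripts. The genes *nmt1* and *thi2* were among the 10 genes with most reads in each wild type library but in neither overexpression library. Whether the kinase alone moves the 48 genes was not tested. Of the 48, 46 were lower in the overexpression strain than in the wild type and 0 were higher, with a median log2 fold change of -0.50 (a 1.42-fold fall, from -0.94 to -0.18), where 27.8% of the 5863 genes tested were called lower. The genes with no call were *rps1501* and *rps2302*. The labels give 2 cultures per strain, and 43 genes were lower when wild type replicate 2 was left out. A fit with 1 culture left out has 1 culture in an arm and 1 residual degree of freedom per gene, and it takes that lone culture to vary like the other strain, so a call lost there rests on little data.

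The largest fall was that of *rps1202* (SPBC1685.02c), a copy for the head protein Rps12, with 7755 and 6010 in the overexpression strain and 12722 and 13556 in the wild type (log2 fold change of -0.94 ± 0.10, adjusted p = 4.45e-05, limma). Counts of *rps2501*, for Rps25, were 1738 and 1941 in the overexpression strain and 3240 and 3339 in the wild type (-0.84 ± 0.07). Those of *rps2201* were 8675 and 9957 in the overexpression strain and 16351 and 15989 in the wild type (-0.80 ± 0.07). None of these genes reached a 2-fold fall, which was also true of the other 45. The smallest differences were in *rps1501*, with 14488 and 12626 in the overexpression strain and 15444 and 15261 in the wild type (-0.18 ± 0.07, adjusted p = 0.0557, limma), and in *rps1401*, with 4069 and 4362 in the overexpression strain and 4845 and 4758 in the wild type (-0.19 ± 0.06, adjusted p = 0.0183, limma). For *rps2302*, the counts were 8560 and 7870 in the overexpression strain and 8436 and 10524 in the wild type, and the groups overlapped (-0.20 ± 0.09). The call of *rps1401* was lost when any culture but overexpression replicate 2 was left out, with no filter on low counts, and in limma without the trend. Its adjusted p-values with 1 culture left out lay between 0.0161 and 0.0996 (limma). With no filter on low counts, 36 genes were called lower, and the share of all genes in that fit is not given here.

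Counts of *rps601* were 13939 and 13731 in the overexpression strain and 19999 and 21740 in the wild type (-0.59). Counts of *rps602* were 23260 and 20807 in the overexpression strain and 26412 and 27592 in the wild type (-0.30 ± 0.07). Both copies were lower in the overexpression strain, and the call of *rps602* was lost when wild type replicate 2 was left out.

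The share of all reads on genes that fell on the 48 gave the size of these changes without a size factor. In MM it was 5.33% ± 0.10 in *igo1*∆, 5.23% ± 0.20 in *ppk18*∆ *cek1*∆ and 5.47% ± 0.23 in the wild type (SD, n = 3 each). At 1 h it was 1.82% ± 0.17 in *igo1*∆, 1.83% ± 0.14 in *ppk18*∆ *cek1*∆ and 1.16% ± 0.15 in the wild type (SD, n = 3 each). At 4 h it was 1.08% ± 0.03 in *igo1*∆, 1.05% ± 0.03 in *ppk18*∆ *cek1*∆ and 0.716% ± 0.023 in the wild type (SD, n = 3 each). The starved deletion cultures did not overlap with the starved wild type cultures of the same time, and the exact permutation p was 0.10 for each of these 4 comparisons (two-sided, 0.12 adjusted over 16 comparisons), which is the smallest p that 3 against 3 cultures allow. In MM the exact p was 0.4 for *igo1*∆ and 0.2 for *ppk18*∆ *cek1*∆ against the wild type. In the overexpression experiment, the share was 3.21% and 3.22% in the overexpression strain and 4.53% and 4.58% in the wild type. In each strain, the lowest culture at 1 h was replicate 1, with 1.62% in *igo1*∆, 1.69% in *ppk18*∆ *cek1*∆ and 0.985% in the wild type.

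**Figure D4:**
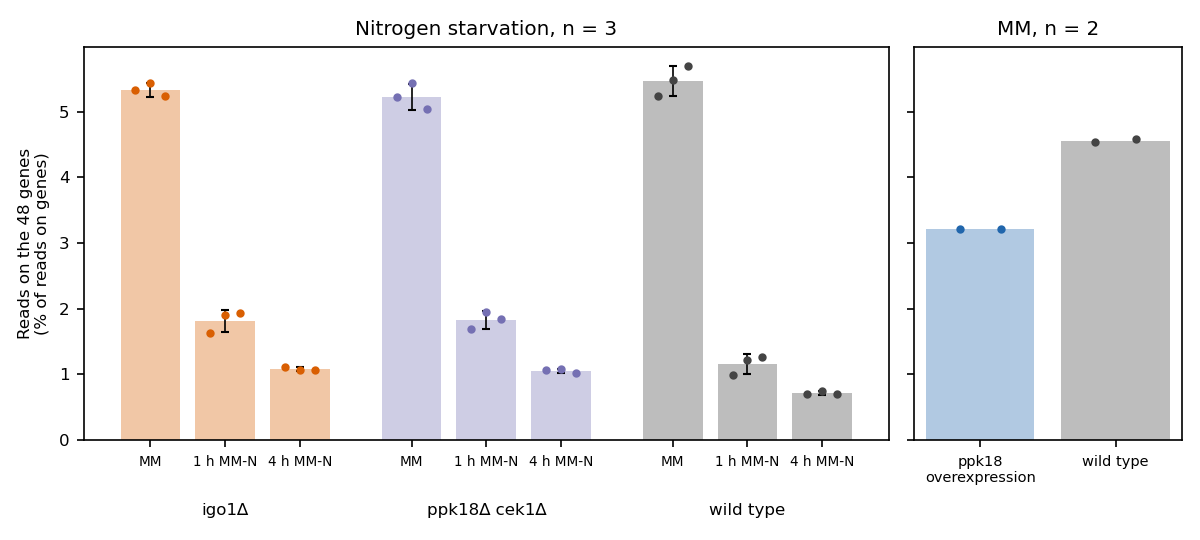
Reads on the 48 genes as a percentage of all reads on genes (y axis, from 0) by strain and culture, with points for libraries, bars for means and error bars for the SD (n = 3, left) and no error bars for the overexpression experiment (n = 2, right). At 4 h the means are 1.08% in *igo1*∆, 1.05% in *ppk18*∆ *cek1*∆ and 0.716% in the wild type.

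The ratio of reads on the 48 genes to reads on the 86 genes with symbols of the large subunit moved little. It was 0.68 in MM in each of the strains. At 4 h it was 0.65 in *igo1*∆, 0.65 in *ppk18*∆ *cek1*∆ and 0.65 in the wild type. The starved libraries lay below the MM libraries in each strain. It was 0.685 in the overexpression strain and 0.696 in the wild type beside it. Within the small subunit, the 20 genes for proteins of the head and the 28 for proteins of the body and platform had medians of -3.26 and -3.48 at 4 h in the wild type. In *igo1*∆ against the wild type at 4 h these medians were 0.60 and 0.67, and after overexpression they were -0.59 and -0.49. The 24 genes with no intron had a median of -3.56 at 4 h in the wild type, and the 24 with an intron had -3.25.

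The 17 pairs of copies were compared to see whether both copies of a protein moved alike. The copies share 77.0% to 95.1% of their coding bases (median of 90.1%), and the longest exact stretch shared by their exons ran from 20 to 151 bases (median of 38), so reads from shared stretches could have been split between them or left out in the counting. In MM, the copies differed little between strains, with a median difference of log2 fold change of 0.03 for *igo1*∆ and 0.04 for *ppk18*∆ *cek1*∆ against the wild type. In the wild type, the median difference between copies was 0.77 at 1 h and 0.43 at 4 h. In *igo1*∆ and *ppk18*∆ *cek1*∆ against the wild type at 4 h, it was 0.32 and 0.31, and after overexpression it was 0.17. The differences between copies are descriptions, and no test was made of them.

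**Figure D5:**
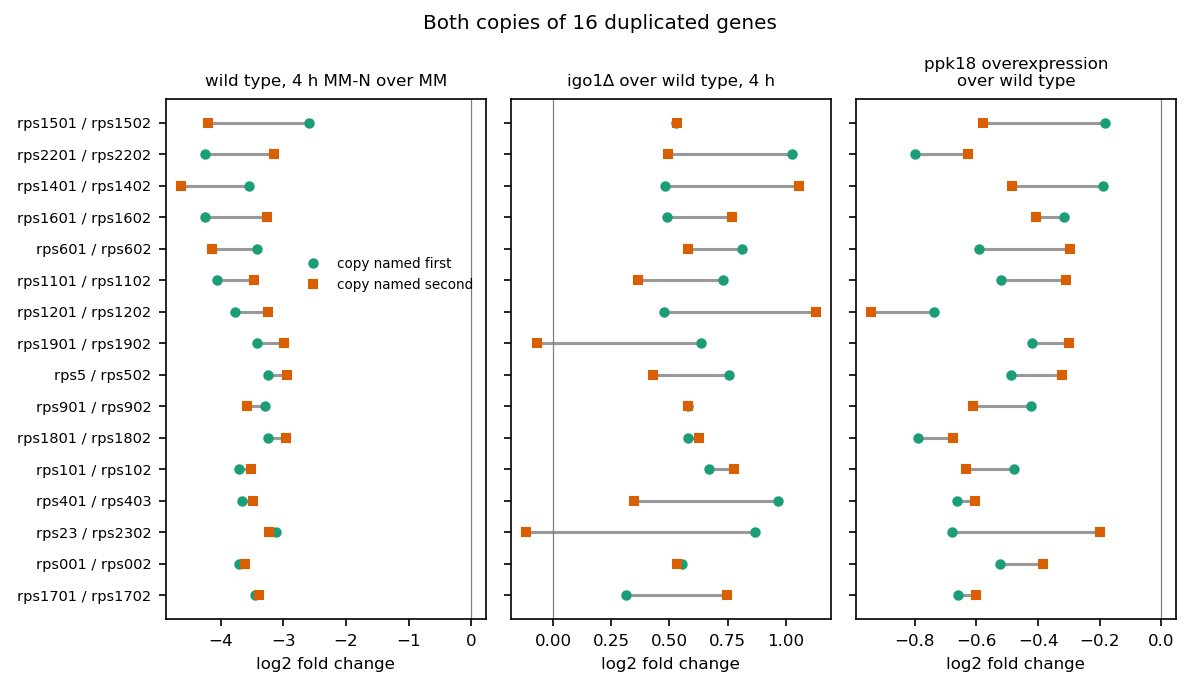
Log2 fold change (x axis) of both copies in 16 of the 17 pairs (rows, ordered by the difference in the left panel), joined by a line, for wild type cells at 4 h in MM-N over MM (left), *igo1*∆ over the wild type at 4 h (middle) and the *ppk18*+ overexpression strain over the wild type (right). Circles mark the copy named first, squares the copy named second, and the longest line of the left panel joins *rps1501* at -2.60 and *rps1502* at -4.20.

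The pair for Rps15 gave the largest difference at 4 h. The copies *rps1501* and *rps1502* lay at nearly equal levels in wild type cells in MM, and *rps1502* had 16446, 18860 and 21047 counts there, 2499, 3206 and 3260 at 1 h, and 1001, 1014 and 1029 at 4 h. The log2 fold change at 4 h was -4.20 for *rps1502* and -2.60 for *rps1501*, a difference of 3.04-fold. After overexpression, *rps1502* had 9202 and 9733 counts in the overexpression strain and 14290 and 13958 in the wild type (-0.58), while *rps1501* was at -0.18 with no call. Of exact matches, the window printed above for *rps1502* holds HomolD alone and that for *rps1501* HomolE alone. The windows of *rps1501* and *rps1502* both also hold CGTGACTG, which differs from TGTGACTG in its first base.

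The pair for Rps22 was unequal from the start. In wild type cells *rps2202* had 5827, 6358 and 6435 counts in MM, 984, 1105 and 1096 at 1 h, and 761, 673 and 662 at 4 h, far below *rps2201* in MM. Per kilobase, the log2 ratio of *rps2201* to *rps2202* was 2.82 ± 0.10 in MM, 1.96 ± 0.14 at 1 h and 1.72 ± 0.15 at 4 h in the wild type (SD, n = 3 each). In *igo1*∆ the ratio was 2.79 ± 0.05 in MM, 2.61 ± 0.14 at 1 h and 2.25 ± 0.04 at 4 h (SD, n = 3 each). In *ppk18*∆ *cek1*∆ it was 2.78 ± 0.10, 2.68 ± 0.12 and 2.15 ± 0.03 at these times (SD, n = 3 each). By 4 h the copies were closer in level than in MM in all 3 strains, and the ratio in the starved deletion cultures stayed above that in the starved wild type cultures of the same time. In *igo1*∆ at 4 h *rps2202* had 998, 960 and 988 counts, and in *ppk18*∆ *cek1*∆ 1020, 962.3 and 1046.

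The pair for Rps23 had the largest difference between copies at 4 h in each deletion strain against the wild type, and after overexpression. At 1 h against the wild type it was not the largest, and the copies were at 0.58 and 0.45 in *igo1*∆. At 4 h *rps23* had 4218, 4047 and 3975 counts in *igo1*∆, 3922, 3882 and 4116 in *ppk18*∆ *cek1*∆, and 2110, 2401 and 2209 in the wild type, with log2 fold changes against the wild type of 0.87 and 0.83, whereas *rps2302* was at -0.12 and -0.03. The log2 ratio of *rps23* to *rps2302* per kilobase was 1.78 ± 0.10 in *igo1*∆, 1.65 ± 0.10 in *ppk18*∆ *cek1*∆ and 0.79 ± 0.03 in the wild type at 4 h (SD, n = 3 each). In MM it was 0.69 in each of the 3 strains. After overexpression *rps23* had 8566 and 9050 counts in the overexpression strain and 13787 and 14396 in the wild type (-0.68). The ratio of the copies was 0.27 ± 0.14 in the overexpression strain and 0.75 ± 0.18 in the wild type (SD, n = 2 each).

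At 1 h in the wild type the largest difference between copies was in the pair for Rps14, with a log2 fold change of -1.95 for *rps1401* and -3.60 for *rps1402*. The copy *rps1401* was below *rps1402* in MM and level with it at 1 h, and their log2 ratio per kilobase was -1.49 ± 0.06 in MM, 0.16 ± 0.13 at 1 h and -0.40 ± 0.13 at 4 h (SD, n = 3 each). In *igo1*∆ the ratio at 1 h was -0.67 ± 0.07 and in *ppk18*∆ *cek1*∆ -0.60 ± 0.16 (SD, n = 3 each). In 11 of the 17 pairs the same copy was the higher one per kilobase in all 9 groups, and in 5 pairs the higher copy of wild type cells in MM was the lower one at 4 h.

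Some of these genes share bases with a gene on the opposite strand, and the sources used here do not give the strand setting of the counting. By the RefSeq annotation, 17 of the 48 overlap another gene of the tables on the opposite strand, 9 of them over more than 50% of the exon length (*rps902*, *rps1101*, *rps1102*, *rps1202*, *rps1401*, *rps1601*, *rps20*, *rps23* and *rps2601*), so that values of *rps1101*, *rps1202*, *rps1401*, *rps1601*, *rps23* and *rps2601* above are less certain. Among the 31 with no such overlap, 31 were lower at 1 h and 31 at 4 h in the wild type (37.5% and 39.4% of all genes tested). In *igo1*∆ 30 were higher at 1 h and 28 at 4 h (32.6% and 38.8% of all genes). In *ppk18*∆ *cek1*∆ 31 were higher at 1 h and 28 at 4 h (30.5% and 37.6% of all genes). After overexpression 29 were lower (27.8% of all genes).

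The size factors make the middle gene of each library equal, and scaling every library to the same total gives another view. The libraries of wild type cells had normalized totals of 20927914 to 22644212 in MM and of 15401600 to 15797624 at 4 h. With equal totals, the 48 genes were still all lower in the wild type at 1 h and at 4 h, with medians of -2.36 and -2.94. The median of all genes tested was at 0.47 at each time. Lower calls then numbered 1295 of the 6036 genes tested at 1 h and 1348 at 4 h. The share of higher calls among all called genes was then 74.2% at 1 h and 73.6% at 4 h in the wild type, against 51.8% and 50.3% with the size factors. In *igo1*∆ it was 73.4% and 64.7%, against 51.1% and 50.5%, and in *ppk18*∆ *cek1*∆ 72.2% and 64.3%, against 50.7% and 50.6%, and the median of all genes was at 0.41 and 0.31 in *igo1*∆ and at 0.37 and 0.29 in *ppk18*∆ *cek1*∆. Against the wild type at 4 h, it was 37.9% in *igo1*∆ and 35.4% in *ppk18*∆ *cek1*∆, against 51.6% and 51.9%, with the median of all genes at -0.15 and -0.16. For *ppk18*∆ *cek1*∆ at 1 h it was 41.3%, against 51.5%. For the differences in response, it was 37.7% for *igo1*∆ at 4 h, 39.9% for *ppk18*∆ *cek1*∆ at 1 h and 34.4% at 4 h, against 53.2%, 52.2% and 53.9%. With equal totals the calls of *rps403* and *rps1701* at 4 h were lost in *igo1*∆, and those of *rps29*, *rps403* and *rps1701* in *ppk18*∆ *cek1*∆. After overexpression, 47 of the 48 were lower with equal totals, where 1610 of the 5863 genes tested were called lower.

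The other genes of ribosome production were read from lists, and their counts stand beside the shares of all genes tested. In the wild type, 39.9% of all genes were called higher at 4 h. Against the wild type at 1 h, 29.9% were called lower in *igo1*∆ and 28.7% in *ppk18*∆ *cek1*∆. Against the wild type at 4 h, the shares called lower were 36.4% in *igo1*∆ and 34.8% in *ppk18*∆ *cek1*∆. After overexpression 29.6% were called higher. The shares in the other direction are those given above for the same comparisons. The 8 further rps genes outside the identifier list (*rps402*, *rps1001*, *rps1002*, *rps2402*, *rps2502*, *rps2602*, *rps2802* and *rps3002*) were lower in 8 of 8 cases in the wild type at 1 h and at 4 h, with medians of -2.73 and -3.30. All 8 were higher in *igo1*∆ and in *ppk18*∆ *cek1*∆ than in the wild type at 4 h, with medians of 0.80 and 0.78, and all 8 were lower after overexpression, with a median of -0.46. Of the 86 genes with symbols of the large subunit (rpl and rpp), 85 were lower and 1 was higher at 4 h in the wild type, with a median of -3.37. The riser, *rpp21*, carries that symbol and codes for a subunit of RNase MRP, so that it does not belong to the ribosome. At 4 h, 76 were higher and 1 lower in *igo1*∆ and 79 were higher and 1 lower in *ppk18*∆ *cek1*∆ than in the wild type, the lower one being *rpl3402* in each. After overexpression 78 were lower and 0 higher, with a median of -0.49, led by *rpp202* and *rpp203* for P2 stalk proteins (-1.11 and -1.08).

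Genes for factors that build the small subunit were also counted. Of 45 assembly factor genes, 45 were lower in the wild type at 1 h and 45 at 4 h, with medians of -1.47 and -1.23, led at 1 h by *nob1*, the gene for the nuclease that trims the 3′ end of the small subunit RNA (-2.39), and at 4 h by *fib1*, the gene for fibrillarin (-2.38). In *igo1*∆ against the wild type, 30 were higher and 2 lower at 1 h, and 18 were higher and 18 lower at 4 h, where the median was -0.06. In *ppk18*∆ *cek1*∆ 33 were higher and 2 lower at 1 h, and 16 were higher and 16 lower at 4 h. At 4 h these counts are near the shares of all genes in both strains, so nothing is read from them about the group. At 4 h *utp6*, for a protein of the early processome, and *gar2*, for the nucleolin of fission yeast, were the highest in *igo1*∆ (1.32 and 1.23). The late assembly factor genes *fap7* and *ltv1* were the lowest (-0.84 and -0.81). After overexpression 29 were lower and 2 higher, with a median of -0.27.

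Of 33 translation factor genes, 33 were lower in the wild type at 1 h and at 4 h (medians of -1.51 and -1.60), led at 4 h by the elongation factor genes *tef101* and *tef102* (each -3.08). In *igo1*∆ 25 were higher and 4 lower at 4 h than in the wild type, in *ppk18*∆ *cek1*∆ 22 and 4, and after overexpression 23 were lower and 1 higher. Of 17 genes for RNA polymerase I, which transcribes ribosomal RNA, and its factors, 13 were lower and 1 higher in the wild type at 4 h, and 14 were lower and 0 higher after overexpression. Of 48 genes for mitochondrial ribosomal proteins, 35 were lower and 4 higher in the wild type at 4 h, with a median of -0.40, and in *igo1*∆ 10 were higher and 19 lower than in the wild type at 4 h, the number lower near the share of all genes. Of 14 genes for regulators of ribosomal protein genes and TOR signalling, 12 were higher and 2 lower in the wild type at 4 h (39.9% of all genes were called higher), with the TOR inhibitor gene *tsc1* at 1.27. After overexpression 12 of these were higher and 1 lower (29.6% of all genes were called higher), led by *sfp1* and *fhl1* (0.88 and 0.79), whose relatives in budding yeast regulate ribosomal protein genes.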

How the data were processed

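RNAseq was measured in 27 libraries of nitrogen-starved or growing cells and in 4 libraries of the *ppk18*+ overexpression experiment. Samples were grouped by their labels. Per the labels and the paper's methods, the authors checked reads with FastQC 0.11.8, trimmed them with Trimmomatic 0.38 where needed, aligned them to assembly ASM294v2 with HISAT2 2.1.0, counted them per gene with featureCounts (Subread 1.6.3) and divided the counts by DESeq2 size factors. The deposited signal values are these normalized counts, in 1 table for each experiment, which were normalized separately. Each library had a smallest step of which 100% of its values were multiples (within 0.001 of a read), and reads were recovered from it. The strand setting of the counting is not given in the sources used here. Each table has 7001 genes, 6852 of which matched the RefSeq annotation (assembly ASM294v3) by locus tag.

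The 48 genes and all gene lists were chosen with earlier results of these data known. Limma 3.58.1 (R 4.3.3, trend option) was run on log2(normalized count + 1) of genes averaging 10 or more, in one fit of 9 groups for the 27 libraries and another for the 4 overexpression libraries. The pseudocount understates the change of low genes. Benjamini-Hochberg adjustment ran over all genes tested, and 0.05 was the threshold. The fit was run beforehand on simulated data in which few genes changed, in both directions alike. Nothing about the comparisons above is concluded from that run. Shares of reads were compared by exact permutation tests. Of the copies, 1 pair enters every count and median but is not reported by itself here. With that exception, values in every culture are given for the 3 genes with the largest and the 3 with the smallest change in the main comparisons. These are the wild type at 1 h and at 4 h against MM, the deletion strains against the wild type at 4 h, and overexpression against the wild type. Values by culture are also given for both Rps6 copies and for the most unequal pairs of copies. Genes named from other lists are the largest changes among those called. The values of *rps1902* and the comparison of the pair for Rps14 were chosen after their values were seen. The lists were the large subunit (86 genes by symbol), mitochondrial ribosomal proteins (48), small subunit assembly factors (45 of 53 symbols found), translation factors (33 of 48), RNA polymerase I (17 of 21) and regulators (14 of 16). Upstream windows of 250 bases were read from the RefSeq genome, since no promoter table was used here.

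Pairing of replicate numbers was checked by the correlation of deviations from group means between libraries with the same number. Every pair was over 0.1 between *igo1*∆ and the wild type at 1 h (0.17 to 0.26) and between 4 h and MM in *igo1*∆ (0.10 to 0.18), so the numbers were taken as pairing there alone. As alternatives, DESeq2 1.42.0 and the quasi-likelihood test of edgeR 4.0.16 (TMM) were run on recovered reads, and limma was rerun with a pseudocount of 10, with no filter or a minimum mean of 50, after quantile scaling or scaling to equal totals, with no trend, with a replicate block, on the compared groups only, and without each library in turn. Python 3.11.15 and matplotlib 3.10.9 made the figures.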

Additional observations from a re-analysis of the deposited data

Results flagged for a closer look

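The response of the 48 genes to nitrogen starvation differed between strains by the interaction term of the limma fit. The change from MM was called less negative in *igo1*∆ than in the wild type in 46 genes at 1 h and in 44 at 4 h. Of all genes tested, 25.1% and 34.2% had a positive difference that was called. The change was called less negative in *ppk18*∆ *cek1*∆ than in the wild type in 48 genes at 1 h and in 44 at 4 h. The shares of all genes tested were here 23.7% and 32.9%. The wild type libraries are shared by these comparisons.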

How the results depend on the processing

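The counts of genes called kept within 1.5 times their value in each comparison under each alternative, with the exceptions given here. Scaling every library to the same total moved the median log2 fold change against MM to -1.65 at 1 h and -2.46 at 4 h in *igo1*∆, to -1.62 and -2.46 in *ppk18*∆ *cek1*∆ (and to -0.78 for 4 h against 1 h), and to -2.36 and -2.94 in the wild type. At 4 h against the wild type it moved the median to 0.45 in *igo1*∆ and 0.47 in *ppk18*∆ *cek1*∆, with 4 genes called lower in each, and the difference in response to 0.50 and 0.52. Of the 6036 genes tested, 2814 in *igo1*∆ and 2846 in *ppk18*∆ *cek1*∆ were then called lower against the wild type at 4 h. Quantile normalization gave -1.68 and -2.55 in *igo1*∆, -1.60 and -2.51 in *ppk18*∆ *cek1*∆ (-0.80 for 4 h against 1 h), -2.44 and -2.997 in the wild type, 0.50 and 0.54 for the deletion strains against the wild type at 4 h, 0.54 and 0.59 for the response, and -0.42 after overexpression. With edgeR and TMM the medians at 4 h against the wild type were 0.57 and 0.60. The cause of these shifts was not tested beyond the scaling itself.

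Without the 10 genes with most reads, the shares of reads in MM, at 1 h and at 4 h were 6.48%, 2.05% and 1.20% in *igo1*∆, 6.34%, 2.096% and 1.17% in *ppk18*∆ *cek1*∆, and 6.64%, 1.31% and 0.828% in the wild type, and 3.77% in the overexpression strain and 5.30% in its wild type, since the total was then smaller. With 1 library left out, the median at 4 h against the wild type lay between 0.59 and 0.67 in *igo1*∆ and between 0.63 and 0.70 in *ppk18*∆ *cek1*∆, and the number of genes higher at 4 h than at 1 h between 0 and 1 in *ppk18*∆ *cek1*∆ and in the wild type. Reversals were seen in values that were not called. At 1 h in *igo1*∆, *rps1401* lay between -0.0386 and 0.131 with 1 library left out, the lowest without wild type replicate 1. At 4 h in *ppk18*∆ *cek1*∆, *rps1902* lay between -0.0498 and 0.00734, and *rps2302* between -0.100 and 0.0359, and both were above 0 without *ppk18*∆ *cek1*∆ replicate 1 and without wild type replicate 2. The cause was not tested.

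With the replicate number as a block, no call of a named gene changed. In *igo1*∆ 46 genes were higher than in the wild type at 1 h (median of 0.65) and 48 lower at 4 h than in MM (median of -2.76), as without the block. The 2 numbers of the overexpression experiment had a correlation of -0.14, and a crossed pairing, added after seeing the data, called 48 genes lower, against 46 with the block and 46 without. The shares of all genes called lower in the fits with a block are not given here, so nothing is read from the rise to 48.

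With 2 or 3 cultures per group, differences of the size of the standard errors, near 0.1 on the log2 scale, were not detectable. With 3 against 3 cultures the exact tests could not go below 0.10.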
